A study of Caenorhabditis elegans with 12 samples.

Results

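The comparison described here is that of Caenorhabditis elegans given genipin with worms given only the solvent. Young adult hermaphrodites of the wild-type strain N2 were moved to drug plates for 48 h, and whole worms were then collected for RNA sequencing. The 4 genipin libraries came from worms on 200 µM genipin in DMSO and the 4 control libraries from worms on DMSO alone, which makes 8 of the 12 libraries of the series. The other 4 libraries, from worms on 100 µM bromhexine, entered the filter on low counts and the estimate of the spread between libraries. They therefore bear on the p-values and standard errors of genipin against DMSO. Bromhexine levels are given only where a genipin value is set beside them. All worms were kept at 20 °C on agar seeded with OP50-1 bacteria, with streptomycin and with FUDR, a drug that blocks DNA synthesis and keeps adults from producing larvae, and the labels place all libraries in 1 batch. The DMSO concentration is not given in the sources used here. Of 46926 genes in the deposited table, 13695 passed the filter on low counts and were tested.

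Genipin is a plant iridoid that crosslinks amine groups of proteins and is used in mammalian cells as an inhibitor of the uncoupling protein UCP2. Uncoupling proteins are carriers of the inner mitochondrial membrane, and ucp-4 encodes the worm member of that family. Worms meet foreign compounds with cytochrome P450 enzymes, which oxidise them, with transferases, which attach sugar or glutathione, and with ABC pumps, which export them. Much of this takes place in the intestine, where many of the genes can be induced. Electrophile and oxidative stress acts largely through the factor SKN-1, misfolded protein in the cytosol through HSF-1, and stress in mitochondria through ATFS-1.

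The 8 libraries held 20.3 to 28.1 M expected counts each, and levels are given as CPM, counts per 1 M of the library size after scaling by TMM. The share of ribosomal RNA was 1.084% in DMSO replicate 3 and at most 0.485% elsewhere among the 8. Nothing in the labels states that replicates were grown as separate cultures, so a p-value here reflects the spread among the samples alone, and that spread may be technical. Whole worms were sequenced, so fewer cells of a type and less RNA per cell cannot be told apart. Markers of the germline, intestine, body wall muscle, pharynx, neurons and hypodermis were all detected, and their summed levels overlapped between the groups.

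Genipin replicate 1 stood apart from the other 3 genipin libraries. In all, 10 genes had a mean under 0.5 CPM with DMSO and over 20 CPM with bromhexine, and 8 of them, leaving out clec-68 and an hsp-16.48 copy described below, were compared among the genipin libraries. In replicate 1 these 8 transcripts lay at 2.78% to 4.75% of their bromhexine mean, with a median of 3.55%. Their medians were 0.267%, 0.303% and 0.214% in replicates 2, 3 and 4. Y73C8C.10, for example, had 6.77 CPM in replicate 1 and 0.0426 to 0.117 CPM in the others, within the range of 0 to 0.188 CPM with DMSO, while its bromhexine mean was 244 CPM. The phospholipid-transporting ATPase homolog tat-6 had 4.5 CPM in replicate 1 and 0.0388 to 0.213 CPM in the others. Why replicate 1 carried these transcripts was not tested. Values without it are given below for the called genes and for some others.

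**Figure D1:**
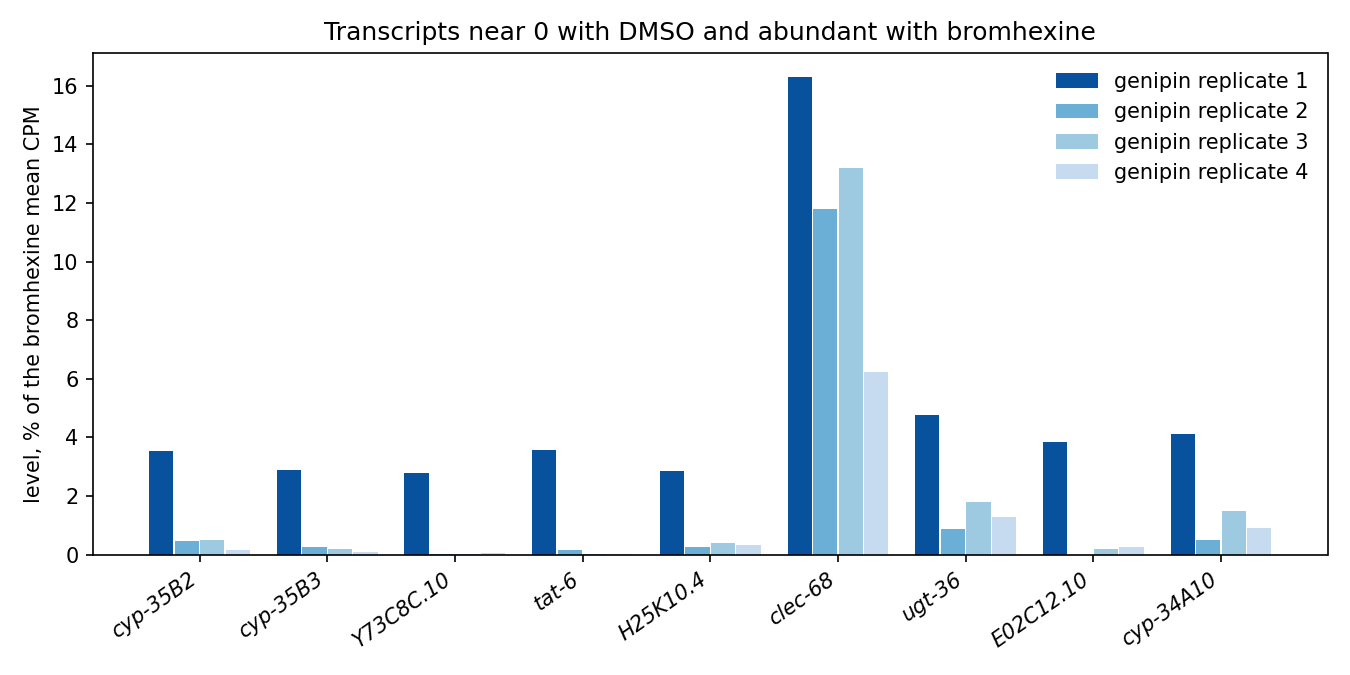
Level of 9 transcripts in each genipin library, as a percentage of the mean CPM of the 4 bromhexine libraries. In 8 of them replicate 1 lies at 2.78% to 4.75% and the other 3 libraries lie below 2%, while clec-68 lies at 6.24% to 16.3% in all 4 genipin libraries.

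Few transcripts passed the test between genipin and DMSO. By edgeR's quasi-likelihood test with Benjamini-Hochberg adjustment over all 13695 genes, 5 genes passed an adjusted p of 0.05, which is 0.0365% of those tested, with 4 higher (0.0292%) and 1 lower (0.0073%). The higher ones were the C-type lectin gene clec-68, the cytochrome P450 gene cyp-35B1, the aldo-keto reductase gene C07D8.6 and 1 of the 2 hsp-16.48 copies. The lower one was the cytochrome P450 gene cyp-13A5. With so few calls, most gene lists below hold none, which by itself says little about a list. Without genipin replicate 1, 6 of 13969 tested genes passed (0.043%), 5 higher (0.0358%) and 1 lower (0.00716%), and 4 of these were also called with it, cyp-35B2 and cyp-35B3 taking the place of C07D8.6. Of these, cyp-35B3 passed the filter on low counts only through the bromhexine libraries, so its call adds no support. An unadjusted p under 0.05 was reached by 671 genes (4.9%), 390 higher and 281 lower. That share is near the one this threshold passes where no gene changes.

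The spread between libraries was small enough to bound most genes. The 95% interval of the fold change lay within 2-fold in either direction for 11728 of the 13695 genes (85.6%). Among the 10514 genes with a mean of at least 2 CPM it did so for 10344 (98.4%), with a median standard error of 0.1 on the log2 scale. A fitted change of more than 2-fold was seen for 44 of those 10514 genes with genipin and for 818 with bromhexine, against the same DMSO libraries, where 5581 of the 13695 genes (40.8%) were called. Tested directly, 4728 genes (34.5%) differed between genipin and bromhexine, 2671 higher and 2057 lower with genipin, and 4134 (29.6%) differed without genipin replicate 1.

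The 4 genipin and 4 DMSO libraries did not overlap for 426 genes (3.11%), with genipin higher in 205 (1.5%) and lower in 221 (1.61%). With 4 libraries a side, some genes lie apart in this way even where no gene changes. In a principal component analysis of the 8 libraries, the groups were mixed on the first component and lay apart on the second. The first component, 24.9% of the variance, ran from -28.1 in genipin replicate 3 to 35.5 in genipin replicate 2, with all DMSO libraries between them. Along it both groups ran in the order of replicates 2, 1, 4 and 3. The values were 18.1, 8.2, -6.7 and -19.6 with DMSO and 35.5, 0.2, -7.5 and -28.1 with genipin. The main fit has no term for the replicate number. On the second component, 20.6% of the variance, the DMSO libraries lay at 2.5 to 25.7 and the genipin libraries at -27.1 to -2.3. DESeq2 called 31 genes (0.226%), 14 higher (0.102%) and 17 lower (0.124%), and limma voom called 2, so the number of calls depends on the tool.

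The call with the smallest p was the rise of clec-68 (WBGene00018970, chromosome IV, 3926417 to 3929105, WBcel235), which encodes a protein with a C-type lectin domain. Many genes of this family are induced in the intestine on infection. Its level was 0.139, 0.224, 0.0912 and 0.113 CPM in the DMSO libraries and 10.8, 7.84, 8.77 and 4.16 CPM in genipin replicates 1 to 4. Every genipin library was far above every DMSO library. The means were 0.142 ± 0.0583 CPM (SD, n = 4) and 7.9 ± 2.79 CPM, a log2 fold change of 5.75 ± 0.42 (SE) with an edgeR adjusted p of 9.7e-06. Without genipin replicate 1 it was 5.55 ± 0.41, with an adjusted p of 2.61e-05. The gene was called in each of the 8 fits that left out 1 library of either group, while limma voom gave an adjusted p of 0.0653.

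With bromhexine clec-68 reached 66.6 ± 16.7 CPM. The genipin level was below that, with a log2 difference of genipin minus bromhexine of -3.08 ± 0.23 (edgeR adjusted p 1.39e-07). Among the 95 of 240 C-type lectin genes that were tested, clec-68 was the only call (1 higher, 0 lower). Over all tested genes 0.0292% were called higher and 0.0073% lower. The list's median log2 fold change was -0.02 beside 0 for all tested genes. Genipin was above DMSO without overlap for 4 of the 95 (4.21%, beside 1.5% of all genes) and below for 0. Beside clec-68 these were clec-3, clec-89 and clec-149. For clec-149 the change was 0.83 ± 0.26 (adjusted p 0.731), from 1.31 ± 0.496 to 2.37 ± 0.227 CPM.

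**Figure D2:**
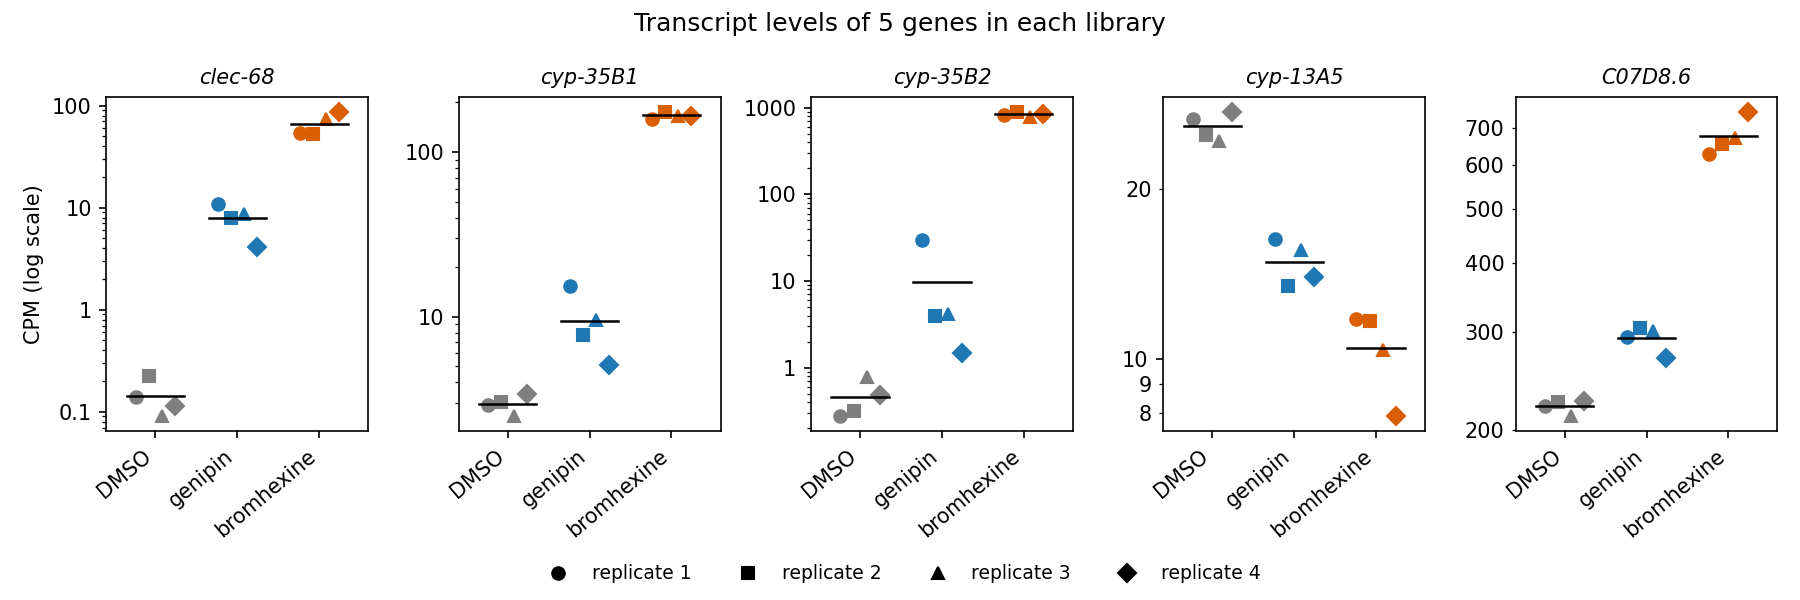
CPM of 5 genes in each library on log axes, with point shape giving the replicate and the black line the mean of 4 libraries. The genipin libraries lie above the DMSO libraries for clec-68, cyp-35B1, cyp-35B2 and C07D8.6 and below them for cyp-13A5, and the bromhexine libraries lie further out on the same side for each gene.

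Among cytochrome P450 genes, the 3 neighbouring genes cyp-35B1, cyp-35B2 and cyp-35B3 on chromosome V were higher with genipin in every library. The CYP35 enzymes are intestinal and are known to be induced by many foreign compounds. cyp-35B1 (WBGene00019472, 3939032 to 3941237) had 2.93, 3.05, 2.51 and 3.42 CPM with DMSO and 15.3, 7.75, 9.51 and 5.09 CPM with genipin. The groups did not overlap, and replicate 1 was the highest of the genipin libraries. The log2 fold change was 1.64 ± 0.25 (edgeR adjusted p 0.0317), and 1.3 ± 0.17 (adjusted p 0.00888) without replicate 1.

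The call of cyp-35B1 was lost without DMSO replicate 1, 2, 3 or 4 (adjusted p 0.145, 0.15, 0.145 and 0.113), with log2 fold changes of 1.58 to 1.72. It was also lost in a fit of only the 8 genipin and DMSO libraries (adjusted p 0.0913) and in one of the 7 without genipin replicate 1 (0.179). The same held with limma voom (0.076) and with a block for the replicate number (0.0514). An RNA gene, K07C6.16, lies on the opposite strand within it, and the strand setting of the counting is not given in the sources used here.

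cyp-35B2 (WBGene00019471, 3942160 to 3944523) had 0.279, 0.314, 0.775 and 0.488 CPM with DMSO and 29.7, 3.96, 4.2 and 1.48 CPM with genipin. All genipin libraries were above all DMSO libraries, and replicate 1 was far above the other 3. With all libraries it was not called (log2 fold change 4.41 ± 0.93, adjusted p 0.188), and without replicate 1 it was (2.78 ± 0.37, adjusted p 0.00888). That call was lost when only the 7 remaining genipin and DMSO libraries were fitted (2.79, adjusted p 0.146). It was also lost with a block for the replicate number (2.74, adjusted p 0.0606). The gene was also called with all but replicate 4 (4.78, adjusted p 0.0315). cyp-35B3 (WBGene00019470, 3945353 to 3947044) had no count in any DMSO library and 236, 22, 14 and 9 counts in genipin replicates 1 to 4. Against a floor of 3 counts over the DMSO group it was at least 100.1-fold higher, and at least 21.1-fold higher without replicate 1. Its edgeR adjusted p was 0.578 with replicate 1 and 0.0159 without it. The gene was tested only because the bromhexine libraries carried it past the filter, which removed it when only the 8 or 7 genipin and DMSO libraries were used, so this p is no support for a change.

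The bromhexine means of these genes were 167 ± 6.78, 838 ± 48.2 and 365 ± 30.4 CPM for cyp-35B1, cyp-35B2 and cyp-35B3. For cyp-35B1 the log2 difference of genipin minus bromhexine was -4.16 ± 0.21 (edgeR adjusted p 3.22e-09). In genipin replicates 2 to 4, cyp-35B2 stood at 0.176% to 0.501% and cyp-35B3 at 0.0957% to 0.257% of the bromhexine mean. In the same libraries tat-6 stood at 0.0308% to 0.169% and Y73C8C.10 at 0.0175% to 0.0478%, and the part of bromhexine-typical transcripts in the cyp-35B values was not tested. T10B5.8, another transcript that bromhexine raised, to 1069 ± 98.8 CPM, had 34.6, 2.6, 2.98 and 1.86 CPM with genipin and 1.22 to 1.46 CPM with DMSO. It was called neither with replicate 1 (2.97 ± 0.84, adjusted p 0.581) nor without it (0.88 ± 0.18, adjusted p 0.209).

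cyp-13A5 (WBGene00011672, chromosome II, 9798277 to 9800362) fell with genipin. It had 26.7, 25, 24.3 and 27.5 CPM with DMSO and 16.3, 13.5, 15.6 and 13.9 CPM with genipin. The highest genipin library was well below the lowest DMSO library, and replicate 1 was not set apart from the rest. The means were 25.9 ± 1.47 and 14.8 ± 1.36 CPM, a log2 fold change of -0.8 ± 0.12 (edgeR adjusted p 0.0237), and -0.86 ± 0.13 (adjusted p 0.0217) without replicate 1. With bromhexine it was at 10.42 ± 1.79 CPM, and genipin was higher than bromhexine by 0.51 ± 0.12 (adjusted p 0.00502). The call was lost without DMSO replicate 1, 2, 3 or 4 (adjusted p 0.143, 0.0797, 0.0645 and 0.113) and without genipin replicate 2 (0.0827), with log2 fold changes of -0.83 to -0.76.

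Across the whole cytochrome P450 list, 66 of 74 genes were tested. Of these 1 was called higher and 1 lower, beside 0.0292% and 0.0073% of all tested genes. Without genipin replicate 1 the counts were 3 and 1, with cyp-35B3 among the 3, beside 0.0358% and 0.00716%. The median log2 fold change was 0.07, beside 0 for all genes, and 0.03 without replicate 1. Genipin libraries did not overlap DMSO libraries for 8 of the 66 genes. They were higher in 7 (10.6%, beside 1.5% of all genes) and lower in 1 (1.52%, beside 1.61%). The 7 include cyp-35B3, which passed the filter only through the bromhexine libraries and so adds no support. Beside the 4 genes above, these 8 held cyp-35A1, cyp-14A3, cyp-37B1 and cyp-33C5. With bromhexine cyp-35A1, cyp-14A3 and cyp-33C5 were called higher, with log2 fold changes of 7.42, 5.25 and 3.1. cyp-35A1 had 1.43 to 2.67 CPM with DMSO and 16.3, 3.7, 4.99 and 2.68 CPM with genipin, so that replicate 1 stood apart there too (1.68 ± 0.47, adjusted p 0.575; 0.8 ± 0.22 and 0.719 without it). cyp-37B1 had 3.66 to 4.93 CPM with DMSO and 5.71 to 6.9 CPM with genipin (0.5 ± 0.15, adjusted p 0.659), and its bromhexine mean of 4.34 CPM was at the DMSO level.

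C07D8.6 (WBGene00015565, chromosome X, 7341509 to 7342780), an aldo-keto reductase gene, changed least among the called genes but at the highest level. Aldo-keto reductases reduce aldehydes and ketones. It had 221, 225, 212 and 226 CPM with DMSO and 294, 306, 301 and 269 CPM with genipin. The lowest genipin library was above the highest DMSO library. The log2 fold change was 0.4 ± 0.06 (edgeR adjusted p 0.0398), and 0.4 ± 0.07 (adjusted p 0.137) without genipin replicate 1. With bromhexine it was at 676 ± 51.2 CPM, with a log2 difference of genipin minus bromhexine of -1.21 ± 0.07 (edgeR adjusted p 5.02e-09). The call was also lost without DMSO replicate 1, 2, 3 or 4 (0.145, 0.15, 0.145 and 0.121) and without genipin replicate 2 or 3 (0.143 and 0.0508), while the fold change ran from 0.38 to 0.44 over the 8 fits. A fit of only the 8 genipin and DMSO libraries gave 0.0527, upper quartile scaling 0.0671 and a block for the replicate number 0.128.

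The last call was 1 copy of hsp-16.48, which encodes a small heat shock protein of the HSF-1 response that holds unfolded proteins. No rise of hsp-16.48 was seen when its copies were summed. There are 2 genes of that symbol, which lie side by side on chromosome V, WBGene00002019 at 9088131 to 9088617 and WBGene00002020 at 9089280 to 9089766. The first copy had 0.628, 0.0448, 0.0456 and 0 CPM with DMSO and 45.8, 33.7, 62.8 and 22.1 CPM with genipin, a log2 fold change of 7.65 ± 0.6 (edgeR adjusted p 1.19e-05). Without genipin replicate 1 it was 7.59 ± 0.63 (edgeR adjusted p 5.47e-05). The second copy was the mirror image, with 49.8 to 58.3 CPM with DMSO and 0, 0, 0.187 and 22.1 CPM with genipin (-3.22 ± 1.07, adjusted p 0.818).

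Summed over both copies, the level was 58.9, 50.8, 56.2 and 49.8 CPM with DMSO and 45.8, 33.7, 63 and 44.2 CPM with genipin. The groups overlapped, since genipin replicate 3 was the highest of the 8. The summed log2 fold change was -0.21 ± 0.14 (95% interval -0.52 to 0.09, adjusted p 0.994), so no rise of hsp-16.48 was detected. The first copy took at most 1.04% of the sum in the DMSO libraries, 50% to 100% in the genipin libraries and 33.3% to 100% in the bromhexine libraries. Whether expression moved between the copies or their reads were divided differently was not tested.

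**Figure D3:**
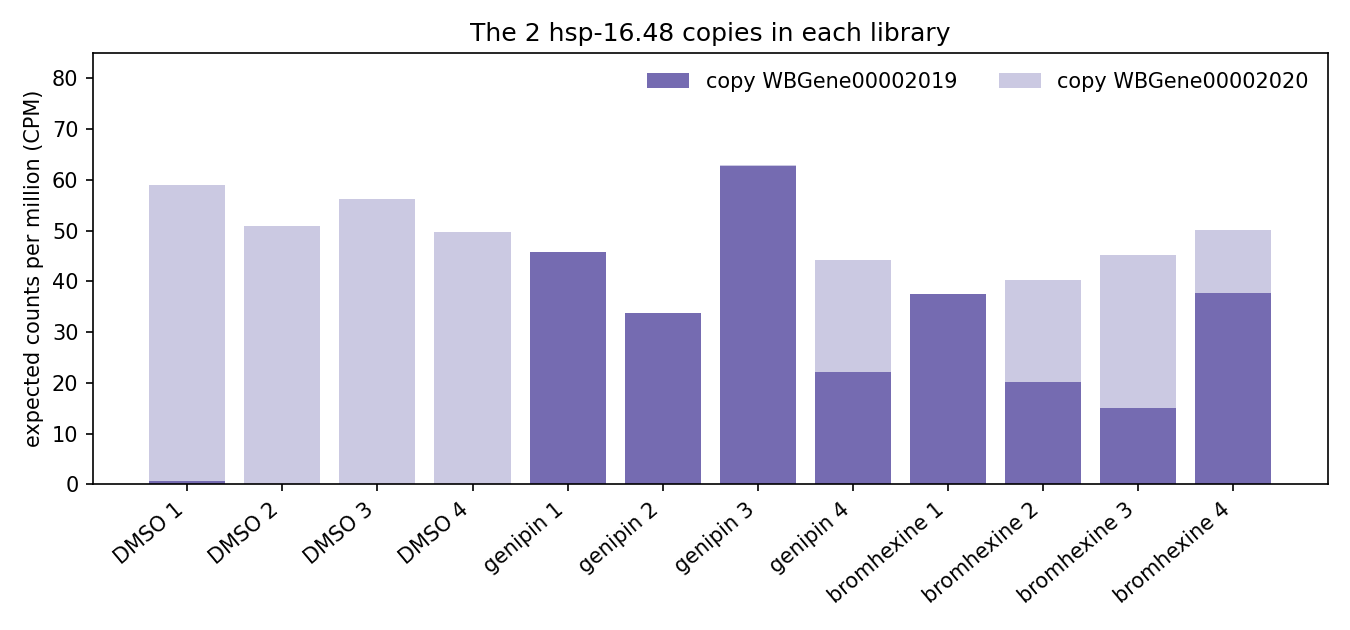
CPM of the 2 hsp-16.48 copies, stacked, in each of the 12 libraries. The counts sit almost wholly on WBGene00002020 in the DMSO libraries and on WBGene00002019 in genipin replicates 1 to 3, while the summed height runs from 33.7 to 63 CPM with genipin and from 49.8 to 58.9 CPM with DMSO.

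Other small heat shock genes were not higher either. hsp-16.2, the usual reporter of this response, had 19.3, 15, 17.5 and 19.5 CPM with DMSO and 11.9, 11.1, 16.23 and 9.21 CPM with genipin. Its 3 lowest genipin libraries were below all DMSO libraries, and replicate 3 overlapped them. The log2 fold change was -0.56 ± 0.14 (95% interval -0.87 to -0.26), with an edgeR adjusted p of 0.466 that became 0.0382 when genipin replicate 3 was left out (-0.73). The summed hsp-16.1 copies had -0.22 ± 0.12 (adjusted p 0.994), hsp-16.41 had -0.41 ± 0.17 (adjusted p 0.989) and the inducible hsp-70 had -0.23 ± 0.12 (adjusted p 0.994). Of 15 tested cytosolic heat shock genes, 10 had a negative fold change, and the hsp-16.48 copy was the only call. The share called over all tested genes was 0.0365%. hsp-70 was called with bromhexine (0.62, adjusted p 0.000884), and genipin differed from bromhexine there by -0.85 ± 0.12 (adjusted p 9.53e-05).

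In the mitochondria, the compartment of genipin's known mammalian target, no gene was called. The worm uncoupling protein gene ucp-4 had 29, 34.7, 30.7 and 31 CPM with DMSO and 28.7, 25.4, 28.1 and 27.8 CPM with genipin. All 4 genipin libraries were below all 4 DMSO libraries, by little. The log2 fold change was -0.19 ± 0.09 (95% interval -0.38 to 0, unadjusted p 0.0493, edgeR adjusted p 0.994). The adenine nucleotide carrier gene ant-1.1, which exchanges ADP and ATP across the inner membrane, had -0.03 ± 0.07 (95% interval -0.18 to 0.12, adjusted p 0.997) at 2360 ± 131 CPM with DMSO and 2305 ± 178 with genipin.

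The chaperone genes hsp-6 and hsp-60, reporters of the mitochondrial unfolded protein response, had 0.03 ± 0.08 (95% interval -0.15 to 0.21) and 0.12 ± 0.1 (-0.1 to 0.34). Both were called with bromhexine, at 0.29 and 0.39, and the direct difference from bromhexine was -0.27 ± 0.08 (adjusted p 0.0255) for hsp-6 and -0.28 ± 0.1 (adjusted p 0.0507) for hsp-60. For hsp-6 that call was lost without genipin replicate 1 (-0.24, adjusted p 0.0671). None of the 12 tested mitochondrial chaperones and proteases was called, beside 0.0365% of all tested genes, and their median was 0.02.

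The respiratory chain and the ATP synthase were covered by 70 subunit genes. All were tested and none was called, beside 0.0365% of all tested genes. Of the 70, 60 had a negative fold change, and the median was -0.07 beside 0 for all tested genes, of which 6900 of 13695 were negative. Genipin was below DMSO without overlap for 9 subunits (12.9%, beside 1.61% of all genes) and above for 0. Among these 9, atp-3, a subunit of the ATP synthase stalk, had 361, 383, 367 and 377 CPM with DMSO and 343, 341, 343 and 328 CPM with genipin. The change was -0.14 ± 0.05 (adjusted p 0.936), and the remaining 8 ran from -0.17 for asg-1 to -0.07 for atp-4. The list's median was also -0.07 without genipin replicate 1, with RLE or upper quartile scaling and in a fit of only the 8 libraries.

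The 70 mitochondrial ribosomal protein genes had a median of -0.07 with 56 negative and 4 (5.71%, beside 1.61% of all genes) below DMSO without overlap. The 80 cytosolic ribosomal protein genes had a median of -0.05 with 65 negative, but 1 gene (1.25%) without overlap in each direction. Over all genes those shares were 1.5% higher and 1.61% lower. The peroxiredoxin gene prdx-3, which encodes a mitochondrial enzyme that removes peroxide, lay lower without overlap, at 95.4 ± 2.93 CPM with DMSO and 84.7 ± 5.18 with genipin (-0.17 ± 0.05, adjusted p 0.712). It was 1 of 2 such genes among 30 antioxidant enzymes (6.67%, beside 1.61% of all genes), with the other, glrx-21, also lower.

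**Figure D4:**
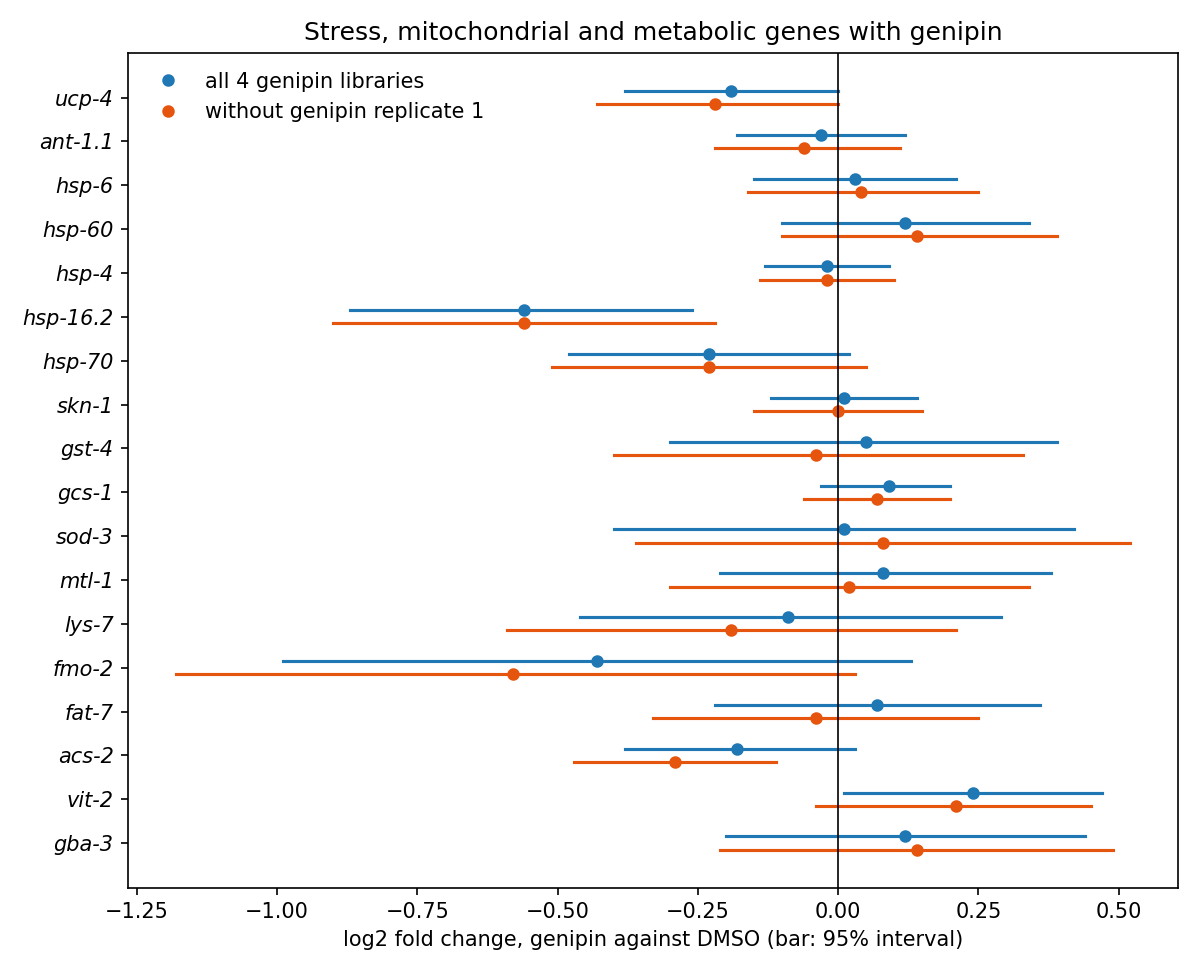
Log2 fold change of 18 genes with genipin against DMSO, with the 95% interval, fitted with all 4 genipin libraries (blue) and without replicate 1 (orange). Most intervals span 0 and lie within 0.5 of it on the log2 scale, and that of hsp-16.2 runs from -0.87 to -0.26 although its adjusted p was 0.466.

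No SKN-1 reporter was called among the 14 tested, beside 0.0365% of all tested genes. gst-4, a glutathione S-transferase and the usual SKN-1 reporter, had 25.5, 24.7, 35.2 and 36.5 CPM with DMSO and 36.7, 24.7, 34.8 and 29.8 CPM with genipin. Both groups covered the same range, with a log2 fold change of 0.05 ± 0.16 (95% interval -0.3 to 0.39) that was -0.04 without replicate 1. gcs-1, the rate-limiting enzyme of glutathione synthesis, had 0.09 ± 0.05 (-0.03 to 0.2), and skn-1 itself had 0.01 ± 0.06 (-0.12 to 0.14). The list's median was 0.04, and gst-10 was its only gene without overlap (7.14%, beside 1.5% of all genes). Its level was 19.3 ± 1.31 CPM with DMSO and 24.4 ± 2.05 with genipin (0.34 ± 0.1, adjusted p 0.58).

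Genes of other stress pathways gave the same picture of small fitted changes. The superoxide dismutase gene sod-3 and the metallothionein gene mtl-1, both raised by the insulin-pathway factor DAF-16, had 0.01 ± 0.19 (95% interval -0.4 to 0.42) and 0.08 ± 0.14 (-0.21 to 0.38). With bromhexine they were called at 1.65 and 1.49, and genipin differed from bromhexine by -1.64 ± 0.18 (adjusted p 1.33e-05) and -1.41 ± 0.14 (adjusted p 3.75e-06). Of 16 tested genes known to be raised under DAF-16, 0 were called with genipin, beside 0.0365% of all tested genes. Their median was -0.02, beside a median of 0.59 with bromhexine against the same DMSO libraries. The 19 tested genes of protein folding in the endoplasmic reticulum ran only from -0.07 to 0.11, and hsp-4, the BiP homolog and reporter of stress there, had -0.02 ± 0.05 (-0.13 to 0.09).

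Of the other groups for handling foreign compounds, 60 UDP-glucuronosyltransferases, 37 glutathione S-transferases, 29 short-chain dehydrogenases and 5 flavin-containing monooxygenases held 0 calls. The share called over all tested genes was 0.0365%. The medians of these groups, in that order, were 0.08, -0.04, -0.04 and -0.15. fmo-2, a flavin-containing monooxygenase gene linked to longevity in worms, had 17.6 ± 4.52 CPM with DMSO and 13.1 ± 2.7 with genipin (-0.43 ± 0.26, adjusted p 0.994). The 22 P-glycoproteins and MRP pumps had a median of 0.14, with 18 positive and 2 (9.09%, beside 1.5% of all genes) above DMSO without overlap. These were pgp-13, at 1.26, 2.38, 1.6 and 1.8 CPM with DMSO and 10.3, 5.45, 4.29 and 2.45 CPM with genipin (1.68 ± 0.35, edgeR adjusted p 0.184, DESeq2 adjusted p 0.0137), and pgp-9, at 13.7 ± 1.71 and 18.8 ± 1.35 CPM (0.45 ± 0.13, adjusted p 0.575). For pgp-13 the value without genipin replicate 1 was 1.21 ± 0.25 (adjusted p 0.28), and bromhexine raised it to 146 ± 16.22 CPM.

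In immunity, 14 tested genes of the PMK-1 pathway, 8 infection response genes, 32 lysozymes and caenopores and 24 epidermal antimicrobial peptides held no call by edgeR. Over all tested genes edgeR called 0.0365%. DESeq2 called irg-4, which is in both of the first 2 lists, and no other of these genes, beside 0.226% of all tested genes. irg-4, a secreted protein of the infection response, was above DMSO in every genipin library, at 72.7, 60.5, 71.2 and 49.3 CPM beside 41.3 to 49.2 CPM, though replicate 4 was barely so. Its change was 0.44 ± 0.1 (edgeR adjusted p 0.299, DESeq2 adjusted p 0.0396). Without genipin replicate 1 it was 0.36 ± 0.1 (edgeR adjusted p 0.813), and the bromhexine mean of irg-4 was 155 ± 10.5 CPM. The lysozyme gene lys-7 had 262 ± 52 CPM with genipin and 279 ± 66.3 with DMSO (-0.09 ± 0.18, 95% interval -0.46 to 0.29), where bromhexine gave 846 ± 147 CPM. The direct difference from bromhexine was -1.69 ± 0.18 (adjusted p 8.48e-06).

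In lipid metabolism, 57 genes of fatty acid activation and oxidation, 21 of fatty acid synthesis and desaturation and 22 of sphingolipid metabolism held no call. The share called over all tested genes was 0.0365%. fat-7, a stearoyl-CoA desaturase gene, had 0.07 ± 0.14 (95% interval -0.22 to 0.36). acs-2, an acyl-CoA synthetase gene that is raised in fasting, had 104.3, 80.7, 77.8 and 79 CPM with genipin and 87.7 to 106 CPM with DMSO. Replicate 1 lay within the DMSO range and the other 3 below it, so that the change was -0.18 ± 0.1 (adjusted p 0.994) with replicate 1 and -0.29 ± 0.08 (adjusted p 0.808) without it. The glucocerebrosidase gene gba-3 had 0.12 ± 0.15 (-0.2 to 0.44), and genipin was above bromhexine there by 1.02 ± 0.15 (adjusted p 0.000191).

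Yolk protein genes of the intestine, the 6 vitellogenins, all had a positive fold change, from 0.14 for vit-1 to 0.31 for vit-3, with 0 called and none without overlap. Over all tested genes 0.0365% were called and 3.11% lay without overlap. vit-2 had 24970, 19290, 22110 and 24980 CPM with DMSO and 28960, 30440, 23690 and 25100 CPM with genipin (0.24 ± 0.11, adjusted p 0.989). Body wall muscle genes were also mostly positive, 22 of 24 with a median of 0.26, under both other scalings and without replicate 1 too. The myosin heavy chain gene myo-3 had 20.9, 17.7, 12.1 and 16.38 CPM with DMSO and 21.7, 29.3, 19 and 27.5 CPM with genipin (0.54 ± 0.15, adjusted p 0.575), with the groups overlapping. Genipin was above DMSO without overlap for 2 of the 24 (8.33%, beside 1.5% of all genes) and below for 0. These were unc-60, which encodes actin depolymerizing factor, at 21 ± 1.68 CPM with DMSO and 26.1 ± 2.57 with genipin (0.31 ± 0.1, adjusted p 0.791), and unc-112, a muscle attachment gene, at 52.6 ± 3.08 and 57 ± 2.13 CPM (0.11 ± 0.07, adjusted p 0.994). The summed level of the 24 muscle genes ran from 2260 to 3200 CPM with DMSO and from 2710 to 3620 CPM with genipin.

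Cuticle collagens are the structural proteins of the worm's exoskeleton. Of 174 such genes 124 were tested and none was called by edgeR, beside 0.0365% of all tested genes. Genipin was below DMSO without overlap for 20 of them (16.13%, beside 1.61% of all genes) and above for 4 (3.23%). The 20 were scarce transcripts, with DMSO means of 0.549 to 24.8 CPM and a median of 2.96 CPM, and their fitted log2 fold changes ran from -2.05 to -1.08. Examples here were chosen after their values were seen. col-12 had 4.29, 6.23, 4.74 and 3.68 CPM with DMSO and 2, 1.66, 2.19 and 1.36 CPM with genipin, with the groups well apart (-1.39 ± 0.27, edgeR adjusted p 0.123, DESeq2 adjusted p 0.000203). col-13 had 4.5, 5.56, 3.42 and 3.31 CPM with DMSO and 1.56, 1.11, 1.82 and 0.505 CPM with genipin (-1.76 ± 0.36, edgeR adjusted p 0.184, DESeq2 adjusted p 0.00374).

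DESeq2 called 6 of the 124 tested collagens lower (col-12, col-13, col-77, col-91, col-92 and col-168), beside 0.124% of all tested genes. It called 1 higher (col-158), beside 0.102%. The 24 collagens with over 100 CPM in the DMSO mean had 22 positive and 2 negative values, with log2 fold changes from -0.01 to 0.39. col-101, for example, had 1014, 1020, 853.1 and 885.6 CPM with DMSO and 1161, 1089, 1156 and 1154 CPM with genipin (0.27 ± 0.13, adjusted p 0.994). The median over the 124 was -0.13, and -0.05 without genipin replicate 1.

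Summed, the 20 had 102, 160, 98.2 and 80.8 CPM with DMSO, 44.6, 38.2, 62.6 and 30.9 CPM with genipin and 11.3 to 15.6 CPM with bromhexine. They were picked as lower in every genipin library, so their sum with genipin had to be lower than with DMSO. The remaining tested collagens summed to 15900 to 17800 CPM with DMSO, to 18100 to 18700 CPM with genipin and to 12600 to 18000 CPM with bromhexine. Over all 174 collagen genes the sum was 16000 to 17900 CPM with DMSO and 18200 to 18800 CPM with genipin, with no overlap. The groups were also apart with RLE scaling, by little with upper quartile scaling (at most 18210 CPM with DMSO and at least 18220 CPM with genipin), and overlapped without scaling (16790 to 18300 CPM and 17870 to 19790 CPM). Other gene groups of the cuticle and of molting were counted in the same way. Among 31 cuticlin and zona pellucida genes and 20 astacin metalloproteases, 0 lay without overlap in either direction, with medians of 0.07 and 0.06. Among 57 hedgehog-related and patched-related genes 1 lay lower without overlap (1.75%, beside 1.61% of all genes), with a median of 0.03. Summed hypodermis markers ran from 539 to 620 CPM with DMSO and from 561 to 584 CPM with genipin.

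**Figure D5:**
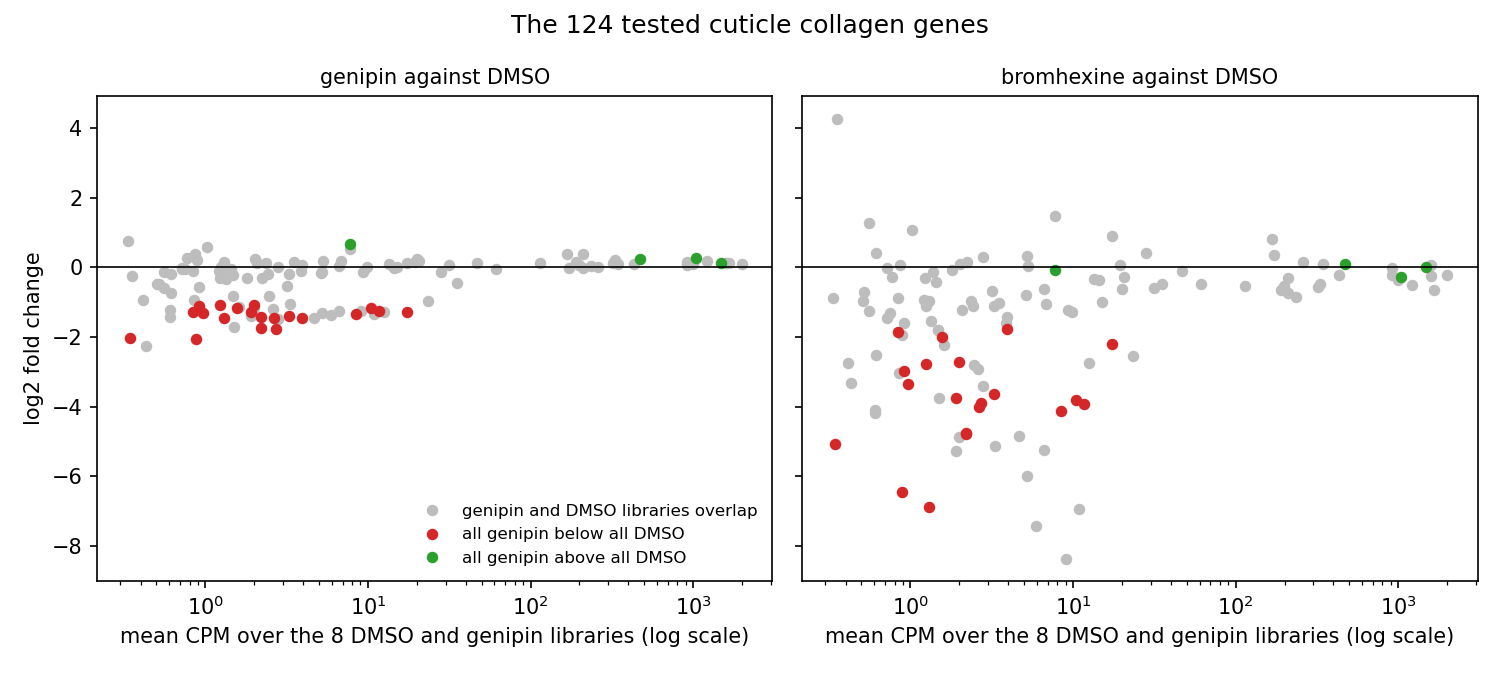
Log2 fold change of each tested cuticle collagen gene against its mean CPM over the 8 DMSO and genipin libraries, with genipin (left) and with bromhexine (right) against the same DMSO libraries. The 20 genes in red, below DMSO in every genipin library, are scarce and lie between -2.05 and -1.08 with genipin, while the abundant collagens lie near 0. Some scarce collagens in grey, whose groups overlap, lie as low, such as col-170 at -2.27, sqt-2 at -1.7 and dpy-5 at -1.31.

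The pud genes, named for proteins that are abundant in mutants of the insulin receptor daf-2, held no edgeR call among 6 tested. The share called over all tested genes was 0.0365%. pud-3 had 5.3, 4.88, 3.78 and 5.22 CPM with DMSO and 10.5, 6.98, 15.9 and 10.8 CPM with genipin, all above the DMSO range. Its log2 fold change was 1.2 ± 0.21 (edgeR adjusted p 0.0724, DESeq2 adjusted p 0.000226), and 1.21 ± 0.23 without replicate 1 (edgeR adjusted p 0.154). With bromhexine it fell to 0.514 ± 0.116 CPM, and genipin exceeded bromhexine by 4.4 ± 0.27 on the log2 scale (adjusted p 1.74e-08). pud-4 had 2.9 ± 0.848 CPM with DMSO and 5.02 ± 1.18 with genipin, with overlap (0.78 ± 0.27, adjusted p 0.838). The other 4 are 2 pairs of copies, whose fitted changes ran from -1.58 to 0.92 when counted apart. pud-1.2 was above DMSO in every genipin library, at 86.1 ± 6.05 and 122 ± 12.4 CPM (0.51 ± 0.12, edgeR adjusted p 0.254, DESeq2 adjusted p 0.0272). Summed with pud-1.1, it had 0.49 ± 0.11 (edgeR adjusted p 0.306). Of the 2 genes named pud-2.2, WBGene00017490 had 0.92 ± 0.69 and WBGene00017500 had -1.17 ± 1.41. Summed, they had 95.8, 87.4, 92.9 and 90 CPM with DMSO and 125, 104.7, 142 and 119.2 CPM with genipin. The sum was higher in every genipin library than in any DMSO library but was not called (0.42 ± 0.11, 95% interval 0.18 to 0.66, edgeR adjusted p 0.522).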

How the data were processed

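Per the labels, total RNA of worms was read in pairs on a HiSeq4000. According to the submitters' processing notes, the authors used FastQC, aligned to WBcel235 with STAR 2.7.11b and estimated expected counts per gene with RSEM 1.3.3; the deposited expected counts carry decimals in 2.06% of values. RSEM divides reads that match several genes, which affects near-identical copies. No source used here gives the annotation release, trimming or strand setting. All 46926 gene IDs were found in the WBcel235 annotation (Ensembl release 115), which gave symbols and positions.

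Expected counts were rounded and analysed with edgeR 4.0.16 in R 4.3.3: filterByExpr on the 3 groups, TMM scaling, and a quasi-likelihood fit of all 12 libraries with group as the only term, so that bromhexine libraries added to the estimate of the spread (biological coefficient of variation 12.1%). P was adjusted by Benjamini-Hochberg over all tested genes. A standard error is the size of the log2 fold change divided by the square root of its F. Without genipin replicate 1 the filter and fit were repeated. With counts of 20.3 to 28.1 M a library, 3 counts over a group served as the floor for a group at 0, which covers counting error only. All 66 pairs of the 12 libraries differed by more than sampling noise (chi-square per degree of freedom of at least 6.64). The procedure was tested on simulated data.

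Named genes came first from those called both with and without replicate 1. From these were taken the 10 largest increases and decreases with no overlap and at least 1 in mean log2 CPM. The 10 most abundant, and up to 3 genes of a list with at least 2 such calls, were taken without these 2 conditions. The 5 largest increases called only with replicate 1 and 21 genes singled out by name were added. This gave 26 genes. Others were chosen after their values were seen. The members and the 59 gene lists were chosen with earlier results of these data known, and lists are described by counts and medians with no set test. Alternatives were DESeq2 1.42.0, limma voom (limma 3.58.1), RLE and upper quartile scaling, no filter or one at 1 CPM in 4 libraries, a replicate block, the 8 libraries alone, an adjusted p of 0.01, a 2-fold minimum, each library left out and, added after seeing the data, summed hsp-16 and summed pud copies and other scalings of the collagen sum.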

Additional observations from a re-analysis of the deposited data

Results flagged for a closer look

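In 7 of 52 sets of 4 libraries, 1 library lay far from the other 3 (its gap to them, over the whole range, was above Dixon's critical value). Chance alone gives such a gap in about 5 of 100 sets, but the 26 genes were chosen with earlier results known, some of them as transcripts that bromhexine raises, so the count of 7 is not read against that rate. Genipin replicate 1 was the library apart for 4 genes. cyp-35B2 had 29.7 CPM there beside 1.48 to 4.2 in the other genipin libraries, cyp-35B3 had 10.5 beside 0.35 to 0.937, T10B5.8 had 34.6 beside 1.86 to 2.98, and acs-2 had 104.3 beside 77.8 to 80.7. All 4 genes were called higher with bromhexine.

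The other 3 were in DMSO libraries. lys-7 had 179 CPM in DMSO replicate 1 beside 308 to 315, ant-1.1 had 2164 in DMSO replicate 3 beside 2410 to 2430, and hsp-16.48 WBGene00002019 had 0.628 in DMSO replicate 1 beside 0 to 0.0456.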

How the results depend on the processing

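The 5 genes called between genipin and DMSO became 31 with DESeq2 (14 higher, 17 lower), 17 without a filter (9 and 8), 2 with limma voom (1 higher), 3 with only the 8 libraries (2 higher), 2 at an adjusted p of 0.01 (2 and 0), 3 with a 2-fold minimum (0 lower), and, without genipin replicate 1, 3 with only the remaining 7 libraries (2 higher). With 1 library left out, calls ran from 2 to 11, higher ones from 2 to 9 and lower ones from 0 to 8. Without DMSO replicate 1, 2, 3 or 4 there were 2, and without genipin replicate 3 or 4 there were 11. The 4728 genes that differed between genipin and bromhexine (2671 higher, 2057 lower) became 2457 (1602 and 855) at an adjusted p of 0.01 and 1259 (892 and 367) with a 2-fold minimum. With 1 library left out the lower ones ran from 1301, without genipin replicate 3, to 2378. Causes were not tested. hsp-16.48 turned to -0.21 with its copies summed. Values near 0 changed sign with 1 library left out, ranging from -0.07 to 0.01 for ant-1.1, -0.04 to 0.15 for gst-4, -0.03 to 0.04 for skn-1, -0.1 to 0.11 for sod-3, -0.03 to 0.09 for hsp-6, -0.01 to 0.19 for mtl-1, -0.04 to 0.19 for fat-7 and -0.25 to 0.02 for lys-7. With only 7 libraries gst-4 and fat-7 were at -0.04. cyp-35B3 could not be fitted with only the 8 or 7 libraries, where the filter removed it.

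With the replicate number as a block, 5 genes were called (3 higher, 2 lower). Of the 5 called without it, clec-68, the hsp-16.48 copy and cyp-13A5 were among them, cyp-35B1 (adjusted p 0.0514) and C07D8.6 (0.128) were not, and hrg-7 (0.57, adjusted p 0.0319) and ram-2 (-1.55, 0.0375) were called in addition. Without genipin replicate 1 the block gave 2 (2 and 0), clec-68 and the hsp-16.48 copy, with adjusted p of 0.0606 for cyp-35B1 and cyp-35B2, 0.0671 for cyp-35B3 and 0.122 for cyp-13A5, and gst-4 was at -0.09, mtl-1 at -0.03 and fat-7 at 0. Deviations of same-numbered libraries correlated at 0.016 to 0.297, other pairs at -0.263 to 0.134, and 3 of 4 genipin libraries correlated best with their own number. Replicates 2, 3 and 4 passed 0.1, at 0.297, 0.247 and 0.179, and replicate 1 did not, at 0.016. Since not every pair passed, the main fit took the numbers as names only. The pair that did not pass holds the genipin library with the bromhexine-typical transcripts, so these correlations do not settle whether the numbers mark pairs. On the first principal component both groups ran in the same order of replicate numbers. Calls lost under the block are given as a limit.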

Other observations

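Some genes close to the threshold, chosen after their values were seen, belong to no group above. oac-6, an acyltransferase homolog, had 12.76, 11.3, 13 and 11 CPM with DMSO and 22.4, 19, 18.5 and 17 CPM with genipin, well apart (0.67 ± 0.11, edgeR adjusted p 0.0565, DESeq2 adjusted p 3.53e-05). Without genipin replicate 1 the change was 0.59 ± 0.11 (edgeR adjusted p 0.154). With bromhexine oac-6 was at 38.2 ± 4.95 CPM. hrg-7, which encodes a secreted aspartic protease that signals heme status between tissues, had 34.3, 25.7, 35.3 and 29.6 CPM with DMSO and 50.5, 42.5, 54.6 and 38.2 CPM with genipin. All genipin libraries were above the DMSO range (0.57 ± 0.11, edgeR adjusted p 0.164, DESeq2 adjusted p 0.00274). Without genipin replicate 1 the change was 0.52 ± 0.12 (edgeR adjusted p 0.398), and the bromhexine mean was 188 ± 13.1 CPM. The other 7 tested heme-responsive genes were called by neither tool and overlapped.

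On the lower side, ram-2 had 13.4, 27.3, 14.6 and 14.6 CPM with DMSO and 5.12, 6.81, 9.51 and 3.15 CPM with genipin. The change was -1.51 ± 0.32 (edgeR adjusted p 0.189, DESeq2 adjusted p 0.186), and -1.44 ± 0.36 (edgeR adjusted p 0.528) without genipin replicate 1. The bromhexine mean of ram-2 was 0.852 ± 0.473 CPM. Among 105 tested neuropeptide and insulin-like peptide genes none was called, beside 0.0365% of all tested genes. Genipin was above DMSO without overlap for 4 (3.81%, beside 1.5% of all genes) and below for 0. One of these was flp-12, which encodes FMRFamide-like peptides, at 1.89 ± 0.364 CPM with DMSO and 2.92 ± 0.155 with genipin (0.63 ± 0.2, adjusted p 0.791).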
